A study of Homo sapiens with 4 samples.

Results

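The 96 genes described here were abundant in 3 of 4 RNA-seq libraries labelled as HGC-27 cells and close to absent from the remaining one, rIL-17B replicate 1. HGC-27 is an established human gastric cancer cell line. It was cultured with PBS as the vehicle (replicates 1 and 2) or with 200 ng/ml recombinant IL-17B (rIL-17B, replicates 1 and 2), a cytokine that binds the receptor IL-17RB, and RNA was collected after 48 h. The labels name no transgene or other agent in any group, and they give the same cell line for both groups. Nothing says that same-group libraries came from separate cultures, so p-values measure only the spread between these libraries, which may be technical. The genes had at least 300 counts in PBS replicate 1, PBS replicate 2 and rIL-17B replicate 2, and at most 3 counts in rIL-17B replicate 1, with an unlisted gene taken as 0. Of 31907 gene names with a count, 7462 were abundant in this sense, and 115 of those had at most 3 counts in rIL-17B replicate 1. The 19 of them that are Y-linked or belong to listed name families (collagens, laminins, integrins, HOX and SOX genes and others) are not described, which left 96 genes, or 1.29% of the abundant genes. The genes were selected on the counts of all 4 libraries, so their lack in rIL-17B replicate 1 is given as values and not as a test result.

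rIL-17B replicate 1 stood apart from its label group across the transcriptome. The library totals were between 12888029 and 17555879 counts and that of rIL-17B replicate 1, 14615341, lay within this range. Levels are given as CPM, counts relative to each library's total and to edgeR's TMM factor, and the factors were between 0.970 and 1.07. With 0.5 CPM added to each value, 2691 of 16361 tested genes (16.4%) were at least 2-fold lower in rIL-17B replicate 1 than in every other library, and 9 (0.055%) were at least 2-fold higher. The labels' library protocol speaks of monocytes, whereas the other labels give HGC-27. HBB, the beta globin of red cells, had 17544, 12983, 11 and 18429 counts in PBS replicates 1 and 2 and rIL-17B replicates 1 and 2, so 3 of the 4 libraries held transcripts of blood cells. Which of the libraries hold the labelled line alone was not tested. Of 28 epithelial markers, 5 were abundant, led by the keratins KRT8 and KRT18. KRT8 had 621 and 624 CPM with PBS, 1361 CPM in rIL-17B replicate 1 and 805 CPM in rIL-17B replicate 2. EPCAM, the epithelial cell adhesion molecule, was low throughout at 54, 39, 78 and 68 counts in the same order. Of 29 markers of gastrointestinal endoderm, 0 were abundant and 10 had at most 3 counts in every library. Their sum was 41.1 and 39.6 CPM with PBS, 14.6 CPM in rIL-17B replicate 1 and 36.9 CPM in replicate 2. Of the 10 tested markers among them, 5 were at least 2-fold lower in rIL-17B replicate 1 than in every other library.

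The genes cover roles of several cell lineages. Platelets are cell fragments shed by megakaryocytes in the bone marrow, and they carry granule proteins, chemokines and clotting factors. CXC chemokines are small secreted proteins that attract neutrophils and other leukocytes, and several of their genes lie side by side on chromosome 4. Interferon-stimulated genes encode proteins that sense or restrict viral nucleic acids. Fibroblasts, pericytes and smooth muscle cells make matrix proteins, hyaluronan receptors and contractile proteins, and neural cells use adhesion molecules and synaptic vesicle proteins to form contacts. The role groups below were assigned by hand from general knowledge after the values were seen.

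**Figure D1:**
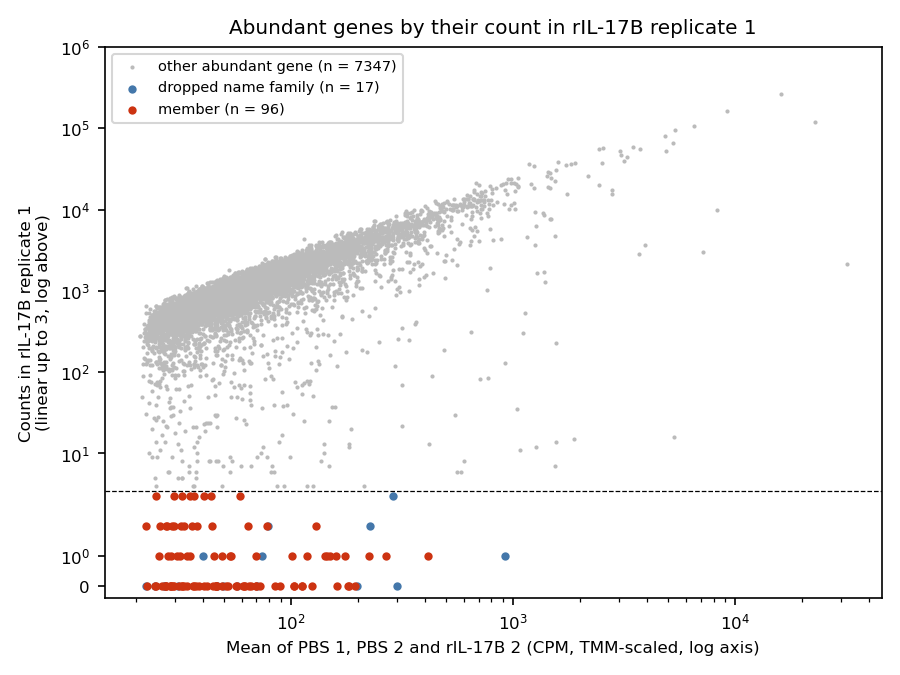
Each point is 1 of 7460 abundant genes (Y-linked genes left out), with its mean CPM over the other 3 libraries on the log x axis and its counts in rIL-17B replicate 1 on the y axis, linear up to 3 and log above. The 96 genes described here (red) and the 17 genes of the dropped name families (blue) lie under the dashed line, at most 3 counts, and the other abundant genes (grey) above it.

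In rIL-17B replicate 1, 52 of the 96 genes had 0 counts, 22 had 1, 14 had 2 and 8 had 3. Their counts summed to 106451 in PBS replicate 1, 88723 in PBS replicate 2, 74 in rIL-17B replicate 1 and 94933 in replicate 2. These sums were 0.669%, 0.688%, 0.000506% and 0.541% of the library totals in the same order. The low sum in rIL-17B replicate 1 follows from the selection, and rIL-17B replicate 2 had the lowest share of the other 3 libraries. For the 52 genes at 0, the mean CPM of the other 3 libraries was at least 117-fold to at least 1014-fold above the floor of 3 counts in rIL-17B replicate 1, which was 0.192 CPM. For the 44 genes with 1 to 3 counts, rIL-17B replicate 1 was 128-fold to 6483-fold lower. Floors and intervals cover counting error only, since PCR copies of 1 molecule are counted separately. In bulk RNA, fewer cells of a type and less RNA per cell cannot be told apart.

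Promoter windows are shown for the 3 genes with the highest mean CPM that the RefSeq promoter table holds, CLSTN2, PTX3 and PPBP, and, chosen after the values were seen, for the other genes of the CXC cluster that it holds. Each window runs from 250 bases before to 50 bases after the annotated start (GRCh38.p14, 5′ to 3′ on the gene's strand). Capitals mark matches on either strand to TATAAA, the core of the TATA box, or to the NF-κB consensus. That consensus was taken as GGGRNWYYCC with no mismatch allowed (R is A or G, N any base, W A or T, Y C or T).
CLSTN2: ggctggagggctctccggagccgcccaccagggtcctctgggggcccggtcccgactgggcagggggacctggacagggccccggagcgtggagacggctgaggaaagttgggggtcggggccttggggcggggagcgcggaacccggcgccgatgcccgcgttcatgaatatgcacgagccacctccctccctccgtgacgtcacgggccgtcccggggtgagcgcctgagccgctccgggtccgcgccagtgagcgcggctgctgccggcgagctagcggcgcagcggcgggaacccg
PTX3: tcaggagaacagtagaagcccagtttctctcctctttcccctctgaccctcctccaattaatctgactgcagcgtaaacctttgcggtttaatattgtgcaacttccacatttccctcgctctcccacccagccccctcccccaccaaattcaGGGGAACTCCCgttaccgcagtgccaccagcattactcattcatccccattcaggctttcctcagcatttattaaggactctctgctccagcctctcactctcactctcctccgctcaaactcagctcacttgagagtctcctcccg
PPBP: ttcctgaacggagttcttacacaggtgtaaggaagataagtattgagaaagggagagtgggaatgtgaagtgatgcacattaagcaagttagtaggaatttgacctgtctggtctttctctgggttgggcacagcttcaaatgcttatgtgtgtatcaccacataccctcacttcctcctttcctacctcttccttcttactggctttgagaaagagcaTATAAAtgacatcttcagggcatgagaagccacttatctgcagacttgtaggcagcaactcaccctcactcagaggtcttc
CXCL8: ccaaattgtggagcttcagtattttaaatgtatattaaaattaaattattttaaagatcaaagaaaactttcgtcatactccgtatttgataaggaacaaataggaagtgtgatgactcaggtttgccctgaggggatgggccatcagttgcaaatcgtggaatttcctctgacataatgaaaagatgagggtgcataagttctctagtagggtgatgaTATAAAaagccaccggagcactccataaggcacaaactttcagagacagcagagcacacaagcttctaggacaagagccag
CXCL1: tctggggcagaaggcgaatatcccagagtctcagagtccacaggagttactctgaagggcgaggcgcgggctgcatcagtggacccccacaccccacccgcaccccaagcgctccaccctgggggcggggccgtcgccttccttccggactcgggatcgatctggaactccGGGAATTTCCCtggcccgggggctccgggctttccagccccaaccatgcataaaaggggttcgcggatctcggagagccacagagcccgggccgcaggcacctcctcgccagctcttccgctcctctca
CXCL6: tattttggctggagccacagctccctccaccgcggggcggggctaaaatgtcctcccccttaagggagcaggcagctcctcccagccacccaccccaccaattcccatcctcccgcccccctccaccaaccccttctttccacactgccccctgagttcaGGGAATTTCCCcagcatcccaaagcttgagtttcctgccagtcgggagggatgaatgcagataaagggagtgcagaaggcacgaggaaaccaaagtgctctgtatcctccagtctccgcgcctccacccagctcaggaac
CXCL5: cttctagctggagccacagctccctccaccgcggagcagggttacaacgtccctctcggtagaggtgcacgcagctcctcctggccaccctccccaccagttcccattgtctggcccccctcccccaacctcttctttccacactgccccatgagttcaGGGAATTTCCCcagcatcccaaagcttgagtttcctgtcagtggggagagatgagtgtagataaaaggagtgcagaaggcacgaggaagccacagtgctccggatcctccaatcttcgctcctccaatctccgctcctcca
The windows lie at chr3:139934935-139935234, plus strand (CLSTN2), chr3:157436600-157436899, plus strand (PTX3), chr4:73988141-73988440, minus strand (PPBP), chr4:73740319-73740618, plus strand (CXCL8), chr4:73869143-73869442, plus strand (CXCL1), chr4:73836428-73836727, plus strand (CXCL6) and chr4:73998628-73998927, minus strand (CXCL5). PTX3, CXCL1, CXCL6 and CXCL5 each held 2 overlapping matches to the NF-κB consensus, 1 on each strand, and their first bases lay 97, 79, 90 and 91 bases before the start in this order. Of all 35116 windows in the table, 5.91% held such a match. PPBP and CXCL8 each held TATAAA 31 bases before the start and 0 matches to the NF-κB consensus. The CXCL8 window holds the run tggaatttcc, which differs from that consensus only in its first base and was not counted. Of all windows, 11.5% held TATAAA at any position on either strand. CLSTN2 held neither motif, and its window had 36 CpG dinucleotides and a GC content of 75.3%. A match is a run of letters and not a measured binding site, and a window without a match may still hold a site. The table held 68 of the 96 genes, or 70.8%, and under 80% a check of promoter composition over the genes is void, so none is given.

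In edgeR's quasi-likelihood test of rIL-17B against PBS over all 4 libraries, 0 of 16361 genes (0%) passed an adjusted p of 0.05, and 226 had an unadjusted p under 0.05. All 96 genes were tested, 0 of them passed, and 0 had an unadjusted p under 0.05, with adjusted p values between 0.681 and 0.831. DESeq2 likewise called 0 genes, with 457 at an unadjusted p under 0.05. The fitted log2 fold change of the 96 genes had a median of -1.32 (range -2.00 to -0.93) beside -0.03 over all tested genes. Without rIL-17B replicate 2, 96 of the 96 genes were called lower where 31.9% of all tested genes were, and without either PBS library 0 were called. The selection used this contrast, so nothing is read from these counts.

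rIL-17B replicate 2 can be set against the PBS libraries without the library that selected the genes, since the limits asked only for 300 counts in each of these 3 libraries. Its CPM lay below both PBS libraries for 86 of the 96 genes (89.6%), beside 32.1% of all abundant genes. It lay above both for 0 of the 96, beside 44.3% of all abundant genes. The log2 ratio of rIL-17B replicate 2 to the PBS mean had a median of -0.32 (range -1.01 to 0.07) over the 96 genes and of 0.02 over all abundant genes. Most of the genes were thus also somewhat lower in the second rIL-17B library, by a small fraction of their drop in the first. The log2 ratio of PBS replicate 2 to PBS replicate 1 had a median of -0.03 (range -0.53 to 1.11). In edgeR's quasi-likelihood test without rIL-17B replicate 1, 43 of the 96 genes were called lower and 0 higher at an adjusted p of 0.05, beside 2.3% of 17103 tested genes called lower. That fit has 1 residual degree of freedom and assumes that the lone rIL-17B library varies like the PBS libraries. The SEs and adjusted p values below come from it. An SE can lie far below the difference between the PBS libraries. For FREM2 the SE was 0.09, and the PBS libraries differed by a log2 of 0.64. For such genes the fit understates the spread between the PBS libraries.

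**Figure D2:**
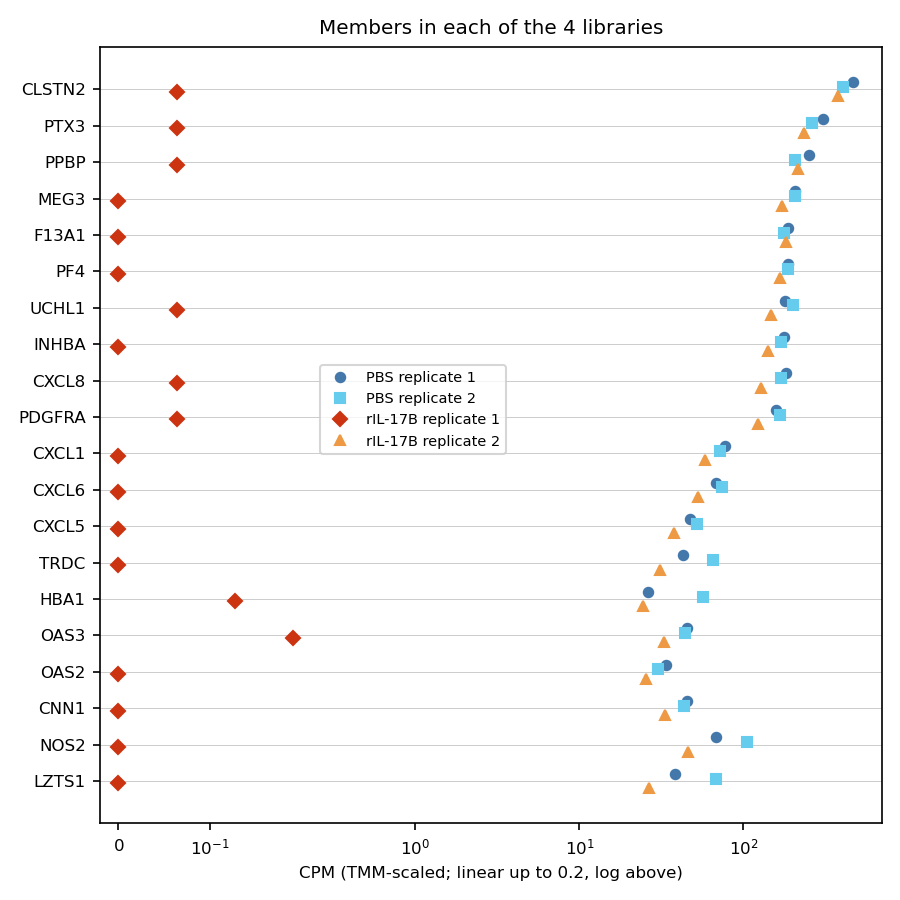
CPM of 20 of the genes in each library (x axis linear up to 0.2 CPM, log above), the 10 with the highest mean at the top and 10 chosen after the values were seen below them. The red diamonds of rIL-17B replicate 1 lie at or near 0 and the other 3 libraries lie together at 24.4 CPM or more.

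Platelet and megakaryocyte genes formed a group of 9 and included the genes with the highest levels per kilobase of exon. PPBP, the precursor of a platelet alpha-granule chemokine (chr4:73987038-73988197), had 3850 and 2590 counts with PBS, 1 in rIL-17B replicate 1 and 3716 in replicate 2. A single count was thus left there, a 3519-fold lower CPM (95% exact interval 631 to 138991). PF4, platelet factor 4, another alpha-granule chemokine (chr4:73981077-73982124), had 2872 and 2366 counts with PBS, 0 in rIL-17B replicate 1 and 2854 in replicate 2, at least 939.6-fold lower in rIL-17B replicate 1. Per kilobase, the mean CPM over the other 3 libraries was 313 for PPBP and 298 for PF4, beside a median of 9.21 over the genes with a known exon length. PF4 has a near-identical neighbour, PF4V1 (198, 130, 1 and 189 counts in PBS replicates 1 and 2 and rIL-17B replicates 1 and 2), so the split of reads between them is uncertain.

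F13A1, the A subunit of the fibrin-crosslinking coagulation factor XIII (chr6:6144085-6321013), had 2885 and 2246 counts with PBS, 0 in rIL-17B replicate 1 and 3119 in replicate 2, at least 951-fold lower in rIL-17B replicate 1. MAP3K7CL, a short relative of a signalling kinase, had 2357 and 1841 counts with PBS, 1 in rIL-17B replicate 1 and 2355 in replicate 2. RGS18, a regulator of G protein signalling in platelets, had 1668 and 1308 counts with PBS, 1 in rIL-17B replicate 1 and 1574 in replicate 2. All 3 genes had their fewest counts outside rIL-17B replicate 1 in PBS replicate 2, the smallest library. GRAP2, an adaptor protein of blood cells, had 1158 and 876 counts with PBS, 1 in rIL-17B replicate 1 and 1088 in replicate 2. The remaining members of the group were TREML1, a receptor of alpha granules, ACRBP, a proacrosin-binding protein also stored in platelets, and MPIG6B, an inhibitory receptor of megakaryocytes, with between 495 and 797 counts in the other 3 libraries and 1, 2 and 3 counts in rIL-17B replicate 1.

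In the platelet group, the log2 ratio of rIL-17B replicate 2 to the PBS mean had a median of -0.07 (range -0.21 to 0.07). rIL-17B replicate 2 lay below both PBS libraries for 4 of 9 genes (44.4%), beside 32.1% of all abundant genes. The median was 0.03 without PBS replicate 1 and -0.16 without PBS replicate 2, so its direction rests on PBS replicate 1. F13A1 had 187 and 178 CPM with PBS and 182 CPM in rIL-17B replicate 2, a log2 difference of -0.01 (SE 0.09, adjusted p = 0.992). TREML1 had 47.3 and 41.3 CPM with PBS and 46.5 CPM in rIL-17B replicate 2, the highest ratio of the 96 genes at a log2 of 0.07. For both genes rIL-17B replicate 2 lay between the PBS libraries.

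A list of 35 platelet markers, added after the values were seen, holds these 9 genes and 26 others. Of the 26, 25 had counts, 12 had at most 3 counts in rIL-17B replicate 1, and GP1BB was at 0 in every library. Without the 9 genes, the list summed to 1164 and 1102 CPM with PBS, 34.6 CPM in rIL-17B replicate 1 and 1040 CPM in replicate 2. Of the 24 tested markers among the others, 21 were at least 2-fold lower in rIL-17B replicate 1 than in every other library, beside 16.4% of all tested genes. ITGA2B, the platelet integrin chain that the name families left out, had 2395 and 1935 counts with PBS, 37 in rIL-17B replicate 1 and 2605 in replicate 2. TUBB1, the beta tubulin of platelets, had 1210 and 1096 counts with PBS, 6 in rIL-17B replicate 1 and 1351 in replicate 2. GP9, a subunit of the platelet receptor for von Willebrand factor, had 228 and 167 counts with PBS, 0 in rIL-17B replicate 1 and 247 in replicate 2, whereas GP1BA, its partner, kept 51 counts in rIL-17B replicate 1 beside 79, 68 and 80 in PBS replicates 1 and 2 and rIL-17B replicate 2.

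HBA1 and TRDC were grouped as other blood genes by their usual roles. Whether the TRDC reads came from blood cells was not tested. HBA1, an alpha globin of red cells (chr16:176680-177522), had 406 and 720 counts with PBS, 2 in rIL-17B replicate 1 and 419 in replicate 2. HBA2 is a near-identical copy and its counts were 4284, 8880, 13 and 4636 in the order PBS replicates 1 and 2 and rIL-17B replicates 1 and 2, so the split between the copies is uncertain. Both alpha globins were highest in PBS replicate 2, where HBA1 had 57 CPM against 26.4 in PBS replicate 1 and 24.4 in rIL-17B replicate 2. HBB did not share the high level of PBS replicate 2, with 1140 and 1028 CPM with PBS and 1074 CPM in rIL-17B replicate 2. The 19 red cell markers other than HBA1 summed to 1478 and 1778 CPM with PBS, 24.3 CPM in rIL-17B replicate 1 and 1401 CPM in replicate 2.

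TRDC, the constant region of the T-cell receptor delta chain (chr14:22462932-22465787), had 658 and 821 counts with PBS, 0 in rIL-17B replicate 1 and 529 in replicate 2. CD3E, a subunit every T-cell receptor needs, had 1, 1, 0 and 1 counts in the same order, and PTPRC, the pan-leukocyte marker CD45, had 47, 22, 0 and 36. TRDC was thus present without the marker that defines T cells, and the 3 libraries with TRDC reads held PTPRC at 22 to 47 counts. TRDC overlaps another annotated gene, AC244502.1, so its reads cannot be assigned with certainty. It had 42.7 and 65 CPM with PBS and 30.8 CPM in rIL-17B replicate 2, a log2 difference of -0.79 (SE 0.12). PBS replicate 2 was the highest library, at a log2 ratio of 0.61 to PBS replicate 1. The part of platelet, red cell or leukocyte RNA in these results was not tested.

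**Figure D3:**
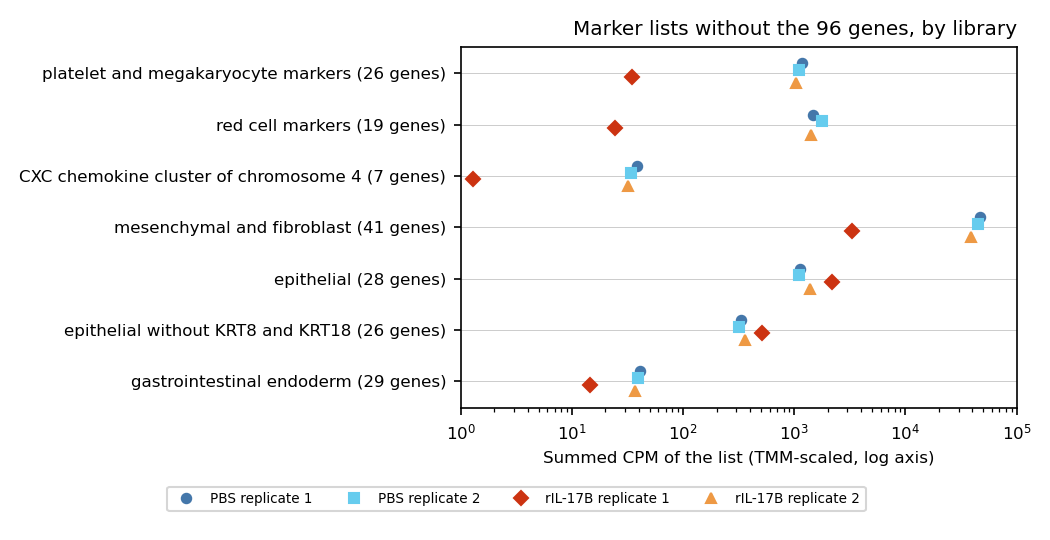
Summed CPM (log x axis) of 6 marker lists in each of the 4 libraries, with the 96 genes left out of each and the epithelial list also shown without KRT8 and KRT18, and with the number of genes summed. The sums of the platelet, red cell, chemokine-cluster, mesenchymal and gastrointestinal endoderm lists are lowest in rIL-17B replicate 1. Both epithelial sums are highest there, although 0 of 16 tested epithelial markers were at least 2-fold higher.

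The chemokine and inflammation group held 10 genes, of which 8 had 0 counts in rIL-17B replicate 1. PTX3, a long pentraxin that marks microbes for phagocytosis (chr3:157436789-157443628), had 4710 and 3305 counts with PBS, 1 in rIL-17B replicate 1 and 3992 in replicate 2, a 4160-fold lower CPM in rIL-17B replicate 1 (95% exact interval 746 to 164321). CXCL8, interleukin-8, the main neutrophil attractant (chr4:73740506-73743716), had 2792 and 2128 counts with PBS, 1 in rIL-17B replicate 1 and 2205 in replicate 2. In both genes rIL-17B replicate 2 was the lowest of the other 3 libraries, with PTX3 at 306 and 262 CPM with PBS and 233 CPM in rIL-17B replicate 2. CXCL8 had 181 and 169 CPM with PBS and 129 CPM in rIL-17B replicate 2, a log2 difference of -0.44 (SE 0.09, adjusted p = 0.000124).

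Of the 13 genes on the list of the CXC chemokine cluster of chromosome 4, added after the values were seen, 6 were abundant, and all 6 are among the 96 genes. Besides CXCL8, PPBP and PF4, these are CXCL1, CXCL6 and CXCL5, which attract neutrophils through the receptor CXCR2. CXCL1 (chr4:73869393-73871242) had 1193 and 914 counts with PBS, 0 in rIL-17B replicate 1 and 995 in replicate 2. CXCL6 (chr4:73836497-73849064) had 1047 and 930 counts with PBS, 0 in rIL-17B replicate 1 and 904 in replicate 2. CXCL5 (chr4:73995642-73998779) had 731 and 656 counts with PBS, 0 in rIL-17B replicate 1 and 651 in replicate 2. The 3 chemokines were at 0 in rIL-17B replicate 1 and between 651 and 1193 counts in every other library. Their less abundant neighbours CXCL2 (176, 132, 12 and 147 counts in PBS replicates 1 and 2 and rIL-17B replicates 1 and 2) and CXCL3 (195, 156, 7 and 187 counts) kept a few counts in rIL-17B replicate 1. CXCL1, CXCL2 and CXCL3 are close in sequence, and the split of reads among them is uncertain. CXCL13, a more distant gene of the list, was at 0 in every library. The 6 abundant genes were selected for their low counts in rIL-17B replicate 1, so their part of the list is fixed by the selection. The 7 other listed genes summed to 38.5 and 34.3 CPM with PBS, 1.28 CPM in rIL-17B replicate 1 and 31.7 CPM in replicate 2.

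Within the cluster, the log2 ratio of rIL-17B replicate 2 to the PBS mean was -0.07 for PPBP and -0.17 for PF4, neither of them called, with adjusted p values of 0.801 and 0.386 in edgeR's test. It was -0.44, -0.37, -0.43 and -0.39 for CXCL8, CXCL1, CXCL6 and CXCL5, all 4 called lower, with adjusted p values of 0.000124, 0.0174, 0.00436 and 0.0296. The difference between these sets of genes was not tested.

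CXCL12, a stromal chemokine that holds blood stem cells in the marrow (chr10:44370165-44386493), had 2197 and 1625 counts with PBS, 0 in rIL-17B replicate 1 and 1756 in replicate 2. CCL5, an attractant of T cells and monocytes that platelets also store (chr17:35871491-35880793), had 1518 and 1184 counts with PBS, 0 in rIL-17B replicate 1 and 1306 in replicate 2. Both lay lowest among the other 3 libraries in rIL-17B replicate 2, at log2 ratios of -0.41 and -0.34 to the PBS mean (adjusted p = 0.000978 and 0.0237, edgeR). CHI3L1, a secreted chitinase-like glycoprotein, had 1740 and 1339 counts with PBS, 0 in rIL-17B replicate 1 and 1579 in replicate 2. SERPING1, the C1 inhibitor of the complement system, had 1482 and 1055 counts with PBS, 0 in rIL-17B replicate 1 and 1297 in replicate 2. NOS2, the inducible nitric oxide synthase, stood apart from the rest of the group, with 67.7 and 105 CPM with PBS and 46.1 CPM in rIL-17B replicate 2 and PBS replicate 2 well above PBS replicate 1. Its log2 difference was -0.89 (SE 0.11), beside a log2 ratio of 0.63 of PBS replicate 2 to PBS replicate 1. Over the 10 genes the log2 ratio of rIL-17B replicate 2 to the PBS mean had a median of -0.38 (range -0.90 to -0.25). rIL-17B replicate 2 lay below both PBS libraries for 10 of 10, beside 32.1% of all abundant genes.

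Interferon-stimulated genes formed a group of 6. OAS3 and OAS2, oligoadenylate synthetases that sense double-stranded RNA, are neighbours on chromosome 12 (chr12:112938352-112973249 and chr12:112978395-113011723). OAS3 had 696 and 560 counts with PBS, 3 in rIL-17B replicate 1 and 565 in replicate 2. OAS2 had 522 and 379 counts with PBS, 0 in rIL-17B replicate 1 and 439 in replicate 2. The neighbours thus had 3 and 0 counts in rIL-17B replicate 1 and 379 to 696 counts elsewhere. SAMD9L, a restriction factor for viral translation, had 514 and 395 counts with PBS, 3 in rIL-17B replicate 1 and 424 in replicate 2. GBP1, a guanylate-binding protein, IFI44, an interferon-induced cytoplasmic protein, and UBE2L6, the enzyme that conjugates the ubiquitin-like protein ISG15, had 327 to 488 counts in the other 3 libraries and 1, 2 and 0 in rIL-17B replicate 1. The log2 ratio of rIL-17B replicate 2 to the PBS mean had a median of -0.34 (range -0.44 to -0.29). rIL-17B replicate 2 lay below both PBS libraries for 6 of 6 genes, beside 32.1% of all abundant genes. OAS3 had the lowest ratio of the group (log2 difference -0.44, SE 0.12). Of the 86 tested genes of the interferon and antigen presentation list outside the 96, 50 were at least 2-fold lower in rIL-17B replicate 1 than in every other library, beside 16.4% of all tested genes.

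Matrix, mesenchymal and contractile genes were the largest group, with 18. FREM2, a basement membrane protein, had 2024 and 2584 counts with PBS, 1 in rIL-17B replicate 1 and 1544 in replicate 2. AEBP1, a collagen-binding matrix protein, had 2148 and 1648 counts with PBS, 2 in rIL-17B replicate 1 and 2046 in replicate 2. CTHRC1, a secreted protein of matrix-forming fibroblasts, had 2015 and 1529 counts with PBS, 1 in rIL-17B replicate 1 and 1740 in replicate 2. The 3 genes had at least 1529 counts in every library but rIL-17B replicate 1. TMEM119, a membrane protein of bone-forming cells and microglia, had 1782 and 1316 counts with PBS, 0 in rIL-17B replicate 1 and 1563 in replicate 2. CD248, endosialin of pericytes and fibroblasts, had 773 and 730 counts with PBS, 1 in rIL-17B replicate 1 and 672 in replicate 2. CNN1, calponin of smooth muscle, had 695 and 549 counts with PBS, 0 in rIL-17B replicate 1 and 569 in replicate 2. CD248 and CNN1 mark different cells of the mesenchymal lineage, whereas TMEM119 is not particular to that lineage.

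The other matrix and mesenchymal genes had 300 to 1128 counts in the other 3 libraries and 0 to 3 in rIL-17B replicate 1. They were MXRA5, a matrix-remodelling protein, HAPLN1, which links hyaluronan to proteoglycans, LAYN, the hyaluronan receptor layilin, LOXL4, a collagen-crosslinking lysyl oxidase, GPC6, a glypican, FNDC1, a fibronectin-domain protein, PAMR1, a secreted protein of muscle regeneration, PDPN, podoplanin of lymphatic vessels and fibroblasts, CYGB, cytoglobin of fibroblast-like cells, MRVI1, a smooth muscle substrate of cyclic GMP kinase, FILIP1L, a filamin-interacting protein, and FIBIN, a secreted protein of limb development. LOXL4 had 3 counts in rIL-17B replicate 1 and 39.8 and 34 CPM with PBS and 36.1 CPM in rIL-17B replicate 2, a log2 ratio of -0.03 to the PBS mean. Over the 18 genes that ratio had a median of -0.30 (range -0.90 to -0.03). Of these, 16 of 18 lay below both PBS libraries, beside 32.1% of all abundant genes. FREM2 had the lowest ratio of the group (log2 difference -0.89, SE 0.09). It had 131 and 205 CPM with PBS and 90.0 CPM in rIL-17B replicate 2. Its log2 ratio of PBS replicate 2 to PBS replicate 1 was 0.64.

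The list of 43 mesenchymal and fibroblast markers holds 2 of the 96 genes, PDGFRA and CD248. Its summed CPM was 47165 and 45456 with PBS, 3329 in rIL-17B replicate 1 and 39148 in replicate 2. Of its 41 other tested genes, 30 were at least 2-fold lower in rIL-17B replicate 1 than in every other library and 0 were higher, beside 16.4% and 0.055% of all tested genes. VIM, the intermediate filament of mesenchymal cells, was still measured in rIL-17B replicate 1, with 261 CPM against 751, 720.4 and 629 CPM in PBS replicates 1 and 2 and rIL-17B replicate 2. The 28 epithelial markers were mixed. Their sum was higher in rIL-17B replicate 1, at 1124 and 1109 CPM with PBS, 2202 CPM in rIL-17B replicate 1 and 1380 CPM in replicate 2, and KRT8 and KRT18 made up most of it. Without these keratins it was 328 and 317 CPM with PBS, 509 CPM in rIL-17B replicate 1 and 363 CPM in replicate 2. Of the 16 tested markers, 0 were at least 2-fold higher in rIL-17B replicate 1 than in every other library and 2 were at least 2-fold lower. KRT19, another simple-epithelium keratin, had 1 count there beside 47, 43 and 58 in PBS replicates 1 and 2 and rIL-17B replicate 2. The part of a change in cell makeup in these values was not tested.

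Developmental signalling and transcription genes numbered 16, of which 10 had 0 counts in rIL-17B replicate 1. Among the ligands, INHBA, the subunit of activin A, a TGF-beta family ligand (chr7:41667168-41705834), had 2704 and 2133 counts with PBS, 0 in rIL-17B replicate 1 and 2433 in replicate 2. WISP1, a matricellular protein induced by Wnt signalling, had 952 and 778 counts with PBS, 0 in rIL-17B replicate 1 and 788 in replicate 2. PTN, the neurite growth factor pleiotrophin, had 779 and 884 counts with PBS, 0 in rIL-17B replicate 1 and 608 in replicate 2. All 3 were at 0 in rIL-17B replicate 1. IGF2, an imprinted fetal growth factor, had 723 and 638 counts with PBS, 0 in rIL-17B replicate 1 and 721 in replicate 2. WNT5B, a noncanonical Wnt ligand, and SLIT3, a guidance ligand, had 319 to 498 counts in the other 3 libraries and 1 and 2 counts in rIL-17B replicate 1.

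Among the receptors, PDGFRA, the platelet-derived growth factor receptor alpha of fibroblasts and oligodendrocyte precursors (chr4:54229097-54298247), had 2440 and 2116 counts with PBS, 1 in rIL-17B replicate 1 and 2113 in replicate 2, a 2311-fold lower CPM in rIL-17B replicate 1 (95% exact interval 415 to 91274). NOTCH3, the Notch receptor of pericytes and vascular smooth muscle, had 1235 and 1123 counts with PBS, 2 in rIL-17B replicate 1 and 1116 in replicate 2. EPHB3, an ephrin receptor, had 418 and 519 counts with PBS, 2 in rIL-17B replicate 1 and 324 in replicate 2. These 3 receptors kept 1 or 2 counts in rIL-17B replicate 1. PLXNA4, a semaphorin co-receptor, had 408 and 363 counts with PBS, 0 in rIL-17B replicate 1 and 321 in replicate 2. HHIP, a decoy that binds Hedgehog ligands, had 390 and 488 counts with PBS, 0 in rIL-17B replicate 1 and 303 in replicate 2. Both were at 0 in rIL-17B replicate 1. DAAM2, a formin that acts downstream of Wnt receptors, and DTX3, a ubiquitin ligase of the Deltex family linked to Notch signalling, had 316 to 537 counts elsewhere and 0 there.

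Among the transcription regulators, ETV1, an ETS factor, had 984 and 922 counts with PBS, 0 in rIL-17B replicate 1 and 841 in replicate 2. ID4, an inhibitor of basic helix-loop-helix factors in neural progenitors, had 484 and 540 counts with PBS, 1 in rIL-17B replicate 1 and 351 in replicate 2. PROX1, the homeobox factor of lymphatic endothelium and of several progenitors, had 404 and 427 counts with PBS, 0 in rIL-17B replicate 1 and 320 in replicate 2. None of the 3 exceeded 1 count in rIL-17B replicate 1. Over the 16 genes of this group the log2 ratio of rIL-17B replicate 2 to the PBS mean had a median of -0.45 (range -0.86 to -0.21). Of these, 16 of 16 lay below both PBS libraries, beside 32.1% of all abundant genes. ID4 had 31.4 and 42.8 CPM with PBS and 20.5 CPM in rIL-17B replicate 2 (log2 difference -0.85, SE 0.13). Its log2 ratio of PBS replicate 2 to PBS replicate 1 was 0.44. Outside the 96 genes, 97 genes of the Wnt, BMP, TGF-beta, Notch and Hedgehog list were tested. Of these, 39 were at least 2-fold lower in rIL-17B replicate 1 than in every other library, and 0 were at least 2-fold higher. The shares over all tested genes were 16.4% and 0.055%.

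The neural and synaptic group held 12 genes, among them the gene with the highest mean CPM of all 96. CLSTN2, calsyntenin-2, a postsynaptic adhesion protein (chr3:139935185-140577397), had 7136 and 5096 counts with PBS, 1 in rIL-17B replicate 1 and 6479 in replicate 2, a 6483-fold lower CPM in rIL-17B replicate 1 (95% exact interval 1163 to 256060). UCHL1, a ubiquitin hydrolase of neurons (chr4:41256413-41268455), had 2745 and 2548 counts with PBS, 1 in rIL-17B replicate 1 and 2536 in replicate 2. Each held at least 2536 counts in every library but one, where a single count was left. CORO2B, an actin-binding coronin of the brain, had 1047 and 1236 counts with PBS, 0 in rIL-17B replicate 1 and 742 in replicate 2. C1orf61, a transcript that overlaps the microRNA gene MIR9-1, had 863 and 1077 counts with PBS, 0 in rIL-17B replicate 1 and 693 in replicate 2. LZTS1, a leucine zipper protein of postsynaptic sites and a candidate tumour suppressor, had 588 and 865 counts with PBS, 0 in rIL-17B replicate 1 and 455 in replicate 2. All 3 were at 0 in rIL-17B replicate 1 and highest in PBS replicate 2.

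The remaining neural genes had 312 to 882 counts in the other 3 libraries and 0 to 2 in rIL-17B replicate 1. NFASC is an adhesion protein of the axon initial segment, SV2A a synaptic vesicle protein, SCN8A a neuronal sodium channel, ADGRL2 an adhesion receptor of the latrophilin family, FEZ1 a transport adaptor of axons, BAALC a protein of brain and of acute leukaemia, and TMEM132B a neural membrane protein. Over the 12 genes the log2 ratio of rIL-17B replicate 2 to the PBS mean had a median of -0.59 (range -1.01 to -0.13). Of these, 12 of 12 lay below both PBS libraries, beside 32.1% of all abundant genes. LZTS1 had the lowest ratio of the 96 genes (log2 difference -0.99, SE 0.12). It had 38.2 and 68.5 CPM with PBS and 26.5 CPM in rIL-17B replicate 2. CORO2B followed with 68 and 97.9 CPM with PBS and 43.3 CPM in rIL-17B replicate 2 (log2 difference -0.93, SE 0.11). The log2 ratio of PBS replicate 2 to PBS replicate 1 was 0.84 for LZTS1 and 0.53 for CORO2B. CLSTN2 had 464 and 404 CPM with PBS and 378 CPM in rIL-17B replicate 2, a log2 ratio of -0.20, so the group was not uniform. In the neuronal list of 80 markers, 40 of the 63 tested genes outside the 96 were at least 2-fold lower in rIL-17B replicate 1 than in every other library, beside 16.4% of all tested genes.

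The enzyme and transporter group held 8 genes. GLUL, glutamine synthetase (chr1:182381704-182392206), had 1742 and 1706 counts with PBS, 0 in rIL-17B replicate 1 and 1516 in replicate 2. PTGIS, prostacyclin synthase of vessel walls (chr20:49503874-49568146), had 999 and 781 counts with PBS, 0 in rIL-17B replicate 1 and 988 in replicate 2. Both were at 0 in rIL-17B replicate 1. GGT5, a gamma-glutamyltransferase that converts leukotrienes, had 577 and 479 counts with PBS, 3 in rIL-17B replicate 1 and 513 in replicate 2. The carriers SLC2A10 (a glucose transporter), SLC4A4 (a sodium bicarbonate cotransporter) and SLC22A17 (a lipocalin receptor) were at 0 in rIL-17B replicate 1 and at 373 to 554 counts elsewhere. LXN, the carboxypeptidase inhibitor latexin, and FBXL7, an F-box protein of ubiquitin ligases, had 375 to 585 counts elsewhere and 2 each there. The log2 ratio of rIL-17B replicate 2 to the PBS mean had a median of -0.33 (range -0.77 to -0.13). GLUL had 113 and 135 CPM with PBS and 88.4 CPM in rIL-17B replicate 2 (log2 difference -0.49, SE 0.09). Its log2 ratio of PBS replicate 2 to PBS replicate 1 was 0.26.

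Long noncoding RNAs were represented by MEG3 and MAGI2-AS3. MEG3, a maternally expressed imprinted RNA that is often silenced in cancer (chr14:100779410-100861031), had 3180 and 2589 counts with PBS, 0 in rIL-17B replicate 1 and 2943 in replicate 2, at least 1014-fold lower in rIL-17B replicate 1. MAGI2-AS3, antisense to MAGI2, had 610 and 481 counts with PBS, 0 in rIL-17B replicate 1 and 549 in replicate 2. Both were at 0 in rIL-17B replicate 1, and rIL-17B replicate 2 lay at log2 ratios of -0.26 and -0.28 to the PBS mean. MEST, an imprinted gene expressed from the paternal copy, had 4 counts in rIL-17B replicate 1, just outside the limit. The use of strand in the counting is not given in the sources used here, so reads of an antisense RNA and of its partner cannot be told apart. The same holds for the 57 of 95 genes with known positions that overlap another annotated gene.

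**Figure D4:**
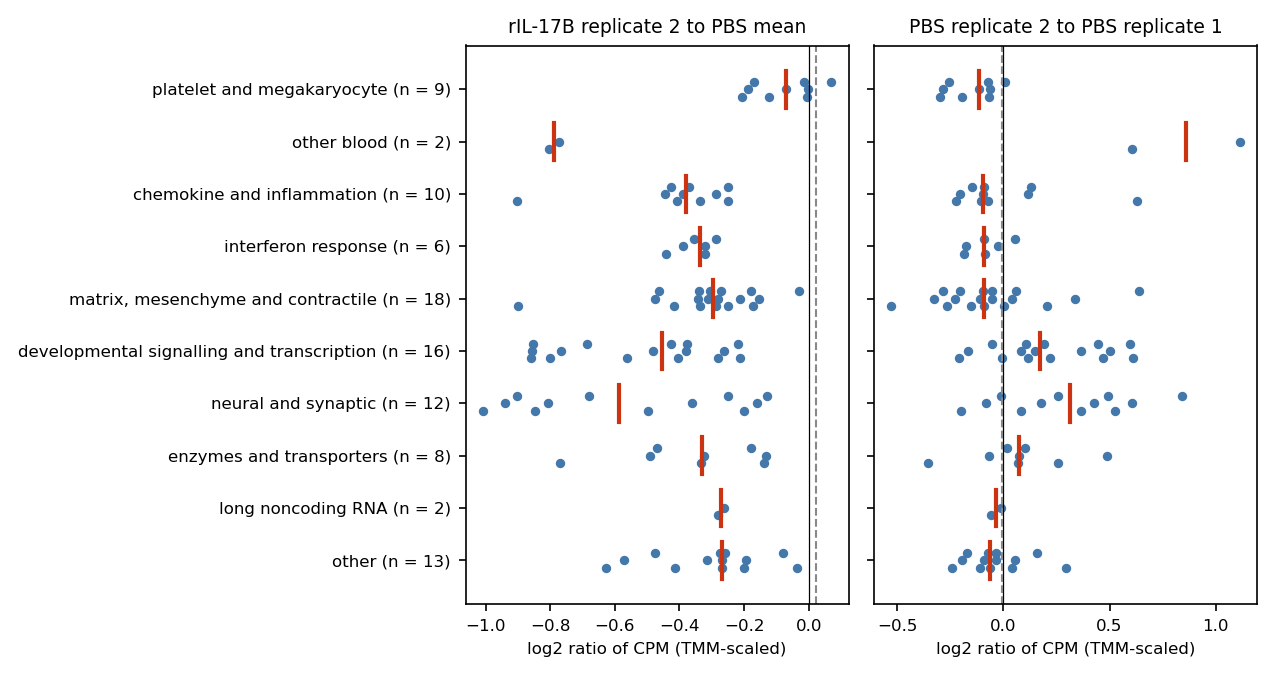
Each blue point is 1 of the 96 genes, in its role group, with its log2 ratio of rIL-17B replicate 2 to the PBS mean (left) and of PBS replicate 2 to PBS replicate 1 (right), where red bars are group medians and the dashed line is the median of all abundant genes. On the left the platelet group lies closest to 0, with a median of -0.07. The 2 genes grouped as other blood by their usual roles (HBA1 and TRDC) lie furthest from it, with a median of -0.79, followed by the neural group at -0.59.

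The other 13 genes have varied roles. FAM129A, a stress-response protein, had 1802 and 1535 counts with PBS, 0 in rIL-17B replicate 1 and 1709 in replicate 2. JCAD, a junctional protein of endothelium, had 997 and 690 counts with PBS, 3 in rIL-17B replicate 1 and 998 in replicate 2. ARMCX3 and ARMCX2, armadillo-repeat proteins of the mitochondrial surface and neighbours on the X chromosome (chrX:101622797-101627843 and chrX:101655281-101659891), had 449 to 840 counts in the other 3 libraries and 0 and 1 in rIL-17B replicate 1. PTPN13, a large tyrosine phosphatase, TSPAN5 and TSPAN18, tetraspanins, TMEM200A and TMEM98, membrane proteins, FAM198B, a Golgi-associated kinase-like protein, SCOC, a coiled-coil protein of the Golgi, SH3RF3, a ubiquitin ligase, and C10orf10, a fasting-induced protein, had 354 to 784 counts in the other 3 libraries. The log2 ratio of rIL-17B replicate 2 to the PBS mean had a median of -0.27 (range -0.63 to -0.04). TSPAN5 had 42.7 and 52.3 CPM with PBS and 30.7 CPM in rIL-17B replicate 2 (log2 difference -0.62, SE 0.12). Its log2 ratio of PBS replicate 2 to PBS replicate 1 was 0.29.

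The ratio of rIL-17B replicate 2 to the PBS mean and that of PBS replicate 2 to PBS replicate 1 both contain PBS replicate 2, so they are not independent, and the values that follow are a description. All 15 genes with a log2 ratio of -0.7 or less (LZTS1, CORO2B, NOS2, BAALC, FREM2, ID4, HHIP, EPHB3, TMEM132B, C1orf61, TRDC, DTX3, HBA1, SLC4A4 and PTN) were higher in PBS replicate 2 than in PBS replicate 1, by log2 ratios of 0.42 to 1.11. Of the 8 genes with a ratio above -0.1 (TMEM200A, PPBP, JCAD, LOXL4, ACRBP, F13A1, MPIG6B and TREML1), 0 were higher in PBS replicate 2, with log2 ratios of -0.30 to -0.08. The other abundant genes gave 23 of 23 (100%) higher in PBS replicate 2 at a ratio of -0.7 or less and 43.8% of 5867 above -0.1, so the lower end is not particular to the 96 genes. Over the role groups, the log2 ratio of PBS replicate 2 to PBS replicate 1 had a median of 0.31 for the neural genes, 0.17 for developmental signalling, -0.09 for matrix and mesenchyme, -0.10 for chemokines and inflammation, and -0.12 for the platelet genes. NES, the intermediate filament of neural progenitors, which is not among the 96 genes and was chosen after its values were seen, had 227 and 352 CPM with PBS and 166 CPM in rIL-17B replicate 2, with 15 CPM in rIL-17B replicate 1.

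The genes lay on most chromosomes, with more on chromosome 4 than elsewhere. Of the 95 genes placed in GENCODE 29, 14 (14.7%) lay on chromosome 4, where 3.30% of the placed abundant genes lie, 12 lay on chromosome 1, and 0 lay on chromosomes 9 and 18. The 6 chemokine genes account for part of the 14. Starts of 8 pairs, made of 12 genes, lay within 100 kb of each other. These were 5 pairs of the chemokine cluster (CXCL8 with CXCL6, CXCL6 with CXCL1, PF4 with PPBP, and CXCL5 with PPBP and with PF4), OAS2 with OAS3, ARMCX2 with ARMCX3, and SERPING1 with UBE2L6 on chromosome 11. The starts of PF4 and PPBP were 6073 bp apart.

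At the limit of the selection, 8 genes had 3 counts in rIL-17B replicate 1 (JCAD, MPIG6B, OAS3, LOXL4, GGT5, SCOC, SAMD9L and CYGB), and 8 abundant genes outside the dropped families had 4 (GJA1, NTM, SYT11, PRKAR2B, MFAP2, MEST, FAM131B and ARHGAP22). GJA1, the gap junction protein connexin-43, had 3654 and 2594 counts with PBS, 4 in rIL-17B replicate 1 and 3343 in replicate 2. PRKAR2B, a regulatory subunit of protein kinase A that is abundant in platelets, had 1469 and 1016 counts with PBS, 4 in rIL-17B replicate 1 and 1428 in replicate 2. NTM, the neural adhesion protein neurotrimin, had 2027 and 1483 counts with PBS, 4 in rIL-17B replicate 1 and 1824 in replicate 2. The genes just outside thus include platelet, neural and matrix genes like those inside. Among all abundant genes, 50 had 4 to 10 counts in rIL-17B replicate 1, 52 had 11 to 30, 85 had 31 to 100 and 6785 (90.9%) had 300 or more.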

How the data were processed

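RNA-seq of 4 libraries labelled HGC-27, 2 with PBS and 2 with rIL-17B, was used. The authors deposited raw counts of reads per gene name from a Smart-seq2 protocol (oligo-dT priming, PCR amplification). The submitters' processing notes name HISAT2 2.1.0, Bowtie2 2.2.3, TopHat2, HTSeq 0.6.0 and hg38, with no role or order, and annotation and strand use are not given in the sources used here. Names turned into dates (22 to 25 per library) were left out, names listed repeatedly with 1 count were used once, and missing genes were set to 0.

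Groups and replicate numbers came from the labels. edgeR 4.0.16 in R 4.3.3 was run with TMM, filterByExpr, the quasi-likelihood test and Benjamini-Hochberg adjustment at 0.05. It was also run on simulated counts in which no library stood apart. That run does not cover a library that stands apart or a fit with a library left out. Ratios of single libraries carry no test. DESeq2 1.42.0, other scalings, other count limits, a replicate block and leaving out each library were the alternatives. Exact binomial intervals cover 95%. Positions come from GENCODE 29 (GRCh38), and 95 of 96 genes were placed. Tables were joined with Python 3.11.15. The replicate numbers were not taken as pairs. Same-numbered libraries' deviations from their group means correlated at 0.0800 over 16361 genes. With 2 libraries per group and rIL-17B replicate 1 standing apart, this value cannot decide whether they are pairs.

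The genes and lists were chosen with earlier results of these data known. Genes were named by mean CPM, by list, at the limit of 3 counts, by the ends of the rIL-17B replicate 2 ratio and as neighbours, and the others, named to account for all 96, were chosen after their values were seen.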

Additional observations from a re-analysis of the deposited data

How the results depend on the processing

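The number of genes rests on the limits: 52 with at most 0 counts in rIL-17B replicate 1, 140 with at most 10, 298 with at least 100 counts elsewhere, 23 with at least 1000, 85 with scaled counts, and 96 to 109 without 1 of the other libraries. With PBS replicate 1, PBS replicate 2 or rIL-17B replicate 2 as the low library (alternatives chosen after seeing the data), 0 genes qualified in each case, and with the name families and Y-linked genes kept, 115 did. Starts within 1 Mb gave 21 pairs in place of 8.

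Leaving out 1 library gave 0 to 9489 calls over all tested genes and 0 to 96 among the 96 genes. The calls came without rIL-17B replicate 1 (504, of which 43) or without rIL-17B replicate 2 (9489, of which 96). The median log2 fold change of the 96 genes then ranged from -11.78 to -0.32. With the replicate block 0 genes were called, 173 had an unadjusted p under 0.05, and that median was -3.71. No other scaling or filter changed a count of calls. The median log2 ratio of rIL-17B replicate 2 to PBS stayed between -0.35 and -0.30. Of 50 alternatives for the role groups, chosen after seeing the data, 47 moved the median by less than the spread between the PBS libraries. The alternatives for promoter CpG content were not run because the check was void. Having 2 libraries per group, of which 1 stands apart, limits every test.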
